A study of Daphnia magna with 20 samples.

Results

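Chitin-handling enzymes, peritrophins and mucins were followed in whole water fleas (Daphnia magna), a filter-feeding freshwater crustacean, after a chronic particle exposure of 21 days. The members were all names in the deposited gene table that contain chitin, peritroph or mucin but neither cuticle nor cuticular. This rule found 29 of 7784 names. By their descriptions they were 2 chitin synthases, 6 chitin deacetylases, 11 chitinases, 5 chitin-binding and peritrophic proteins, and 5 mucins.

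The 20 RNA libraries fell into 4 groups of 5. The nano_high group received ethylene acrylic acid copolymer at 2.3e12 particles per litre and the nano_low group the same polymer at 2.3e11 particles per litre. The silica group received fumed silica at 2.3e12, for which the labels give no unit. The control group received the vehicle, whose makeup the labels do not describe. All groups were kept singly in glass jars with an algal and yeast-based diet, and daphnids were pooled before RNA extraction, so each library averages several animals. The labels name no strain or clone, and do not say whether the 5 libraries of a group came from separate cultures. The labels give the stage as neonates under a day old, while the exposure ran to day 21, so the age at RNA sampling is not settled. The p-values below measure the spread between these libraries.

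Chitin is a polymer of N-acetylglucosamine that stiffens the arthropod exoskeleton and the peritrophic matrix, the sheet that separates food from the gut wall. Chitin synthases build it, deacetylases remove acetyl groups from it and change how it binds proteins, and chitinases cut it when old cuticle is shed or gut lining is renewed. Peritrophins bind chitin through small cysteine-rich domains, and mucins are heavily O-glycosylated proteins that form surface coats and gels. In Daphnia the swallowed particles travel through the gut inside the peritrophic matrix. The names are descriptions carried over from other species, such as human mucin-17 or fruit fly mucin 55b. Roles given below are those of the namesakes and were not measured here.

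Levels are CPM, counts per 1000000 of the scaled library total, and are not corrected for transcript length. Levels of different genes are therefore not comparable per transcript, and a statement that 1 name has more CPM than another refers to its share of counts only. A name was called when edgeR's quasi-likelihood test, fitted to all 20 libraries and adjusted by Benjamini-Hochberg over 7564 names, gave an adjusted p under 0.05. All 29 members were among the names tested. Of these, 2 chitinase names had 0 counts in some libraries. The 3 names chosen to mark the set (mucin-17, mucin 55b and the cbm_14 peritrophin-A domain protein) were detected in all 20 libraries. In pooled whole animals, fewer cells of a type and less RNA per cell cannot be told apart.

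Depth and overall expression differed between libraries. Totals ran from 39087882 to 95906857 counts in nano_high, from 9689064 to 40227246 in nano_low, from 7912434 to 54862334 in silica and from 11918440 to 26562258 in control, so every nano_high library was deeper than every control library. On the first principal component of all names, 5 libraries (nano_high 4 and 5, nano_low 1, control 4 and 5) lay between -55.2 and -33.6, and the others between -12.3 and 39.9. No silica library was among these 5. Results were therefore also computed without these 5 libraries, a choice made after the data were seen. The summed CPM of 4 ovary and yolk names ran from 20151 to 139917 in nano_high, from 14146 to 62011 in nano_low, from 9939 to 27907 in silica and from 27167 to 79662 in control. Their part in the results below was not tested.

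The clearest pattern lay in the mucins of the nano_high group, where mucin-17 was lower and mucin 55b higher. Of the 29 members 2 were called in nano_high against control, against 10.1% of all names tested. In nano_high against silica 3 were called, mucin-17 lower and mucin 55b and the cbm_14 protein higher, against 5.35% of all names. The first count is under its background share and the second is a few names only, so the values below describe single members and not the set.

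No member was called by edgeR in the other comparisons. In nano_low against control 0 of 29 were called by edgeR and 0 by DESeq2, and 2 had an unadjusted p under 0.05. The background was 0.621% of names called and 14.1% with an unadjusted p under 0.05. In silica against control edgeR called 0 of 29 and DESeq2 called 2, and 6 had an unadjusted p under 0.05. The background was 0.701% called by edgeR and 23.2% under the unadjusted threshold. Of all 7564 names DESeq2 called 399 in silica against control, 227 in nano_low against control and 4 in nano_high against nano_low. In nano_high against nano_low 0 were called by edgeR and 0 by DESeq2, and 2 had an unadjusted p under 0.05, with 0% of all names called and 6.76% under the unadjusted threshold. The unadjusted counts for the first pair of comparisons were 4 of 29 for nano_high against control, where the background was 24.8%, and 7 of 29 for nano_high against silica, where it was 25.2%.

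The members moved in both directions, so medians over the set say little of single names. In nano_high against control 12 of 29 log2 differences were above 0 and 17 below. The median log2 fold change of the 29 members was -0.10 in nano_high against control (0.02 over all names), 0.02 in nano_low against control (0.01 over all names) and 0.14 in silica against control (0.03 over all names). It was -0.05 in nano_high against nano_low (0.01 over all names) and -0.13 in nano_high against silica (-0.01 over all names). Without regard to sign, the median size of the log2 difference was 0.29 in nano_high against control (0.22 over all names), 0.17 in nano_low against control (0.18) and 0.35 in silica against control (0.24). It was 0.24 in nano_high against nano_low (0.14 over all names) and 0.28 in nano_high against silica (0.23). Together the members held 0.942% to 1.18% of the scaled counts in nano_high, 1.02% to 1.56% in nano_low, 1.2% to 1.66% in silica and 1.11% to 1.37% in control. The nano_high shares lay just below all silica shares and overlapped those of nano_low and control. The summed CPM averaged 10704 in nano_high and 14043 in silica, and mucin-17 alone averaged 3087 and 6587. The gap between nano_high and silica was thus about that of mucin-17 alone and does not describe the other members.

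**Figure D1:**
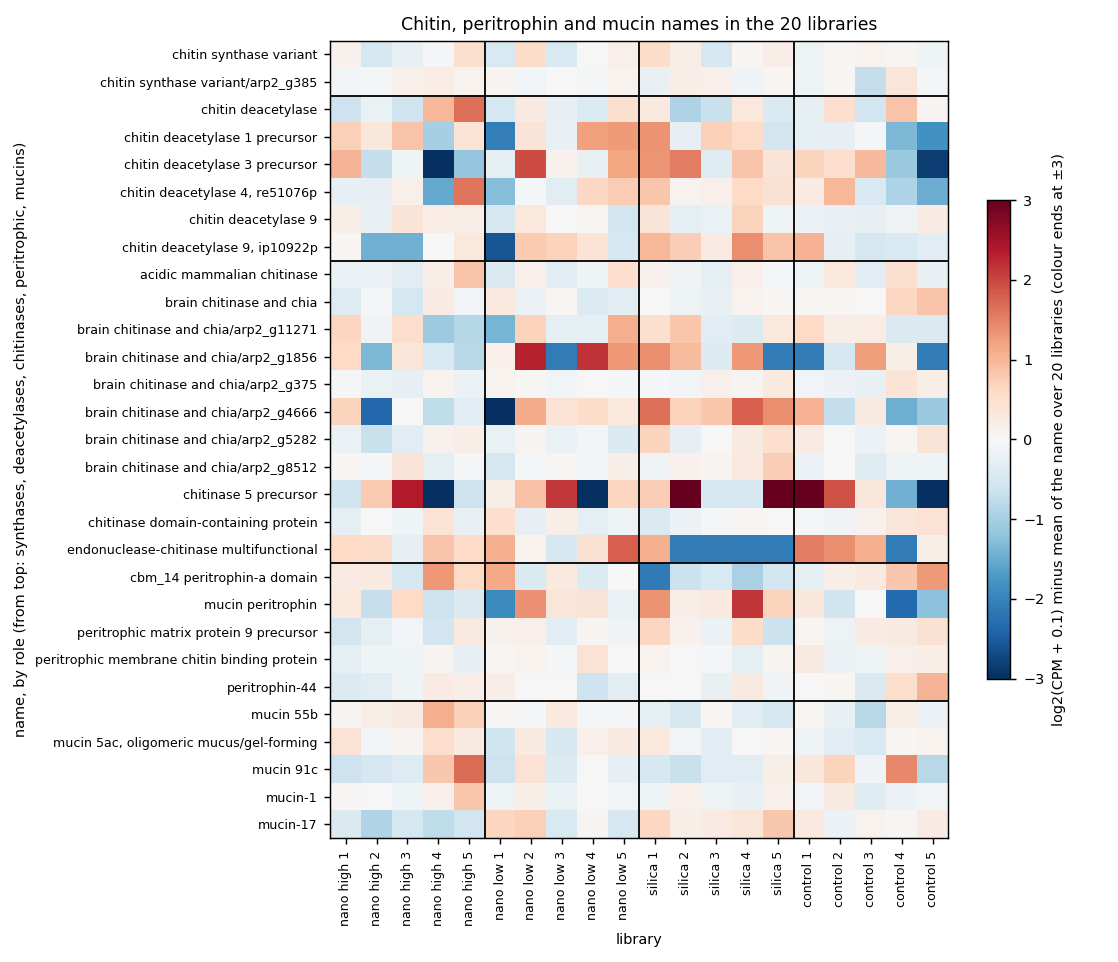
Level of each of the 29 names (rows, by role) in each of the 20 libraries (columns, by group), as log2(CPM + 0.1) minus the mean of that name over the 20 libraries, with colours ending at ±3. Mucin-17 is below its mean in all 5 nano_high libraries, while chitinase 5 precursor and the chitin deacetylases vary as much within groups as between them.

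Mucin-17, named after a membrane-bound mucin of the human intestinal surface, had the highest mean CPM of the members. It had 3516, 2568, 3324, 2803 and 3222 CPM in nano_high libraries 1 to 5, against 5833, 4255, 5135, 4885 and 5661 CPM in control libraries 1 to 5. The highest nano_high library lay below the lowest control library, so the groups did not overlap. In nano_low it had 7463, 7869, 3469, 5044 and 3377 CPM, and in silica 7322, 5418, 5706, 6148 and 8339 CPM. The nano_low libraries thus spread from the nano_high range to beyond the highest control, and all silica libraries lay above every nano_high library. Group means were 3087 ± 390 CPM in nano_high, 5444 ± 2139 in nano_low, 6587 ± 1219 in silica and 5154 ± 632 in control (SD, n = 5 each).

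Mucin-17 fell in nano_high against control by 0.74 on the log2 scale (SE 0.21, 95% interval -1.18 to -0.30, edgeR adjusted p = 0.0308). Against silica the nano_high level fell by 1.09 (SE 0.21, 95% interval -1.54 to -0.65, edgeR adjusted p = 0.0108). Against nano_low the log2 difference was -0.82 (95% interval -1.26 to -0.38) with an unadjusted edgeR p of 0.00101 and an adjusted p of 0.557, so it was not called. Neither of the other exposures moved mucin-17 past the threshold against control. Its log2 difference was 0.08 in nano_low (95% interval -0.36 to 0.52, edgeR adjusted p = 0.883) and 0.35 in silica (95% interval -0.08 to 0.79, edgeR adjusted p = 0.298). All nano_high libraries were deeper than the control libraries. Of the deepest libraries outside nano_high, silica 1 (54862334 counts) had 7322 CPM, nano_low 2 (40227246) 7869 CPM and nano_low 5 (36833295) 3377 CPM. The part of depth in the difference between nano_high and control was not tested.

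The call against control was close to the threshold. By edgeR its adjusted p became 0.0793 without nano_high 2, 0.0577 without nano_high 3, 0.0513 without nano_high 4, 0.0524 without nano_high 5, 0.0588 without control 1, 0.0617 without control 3, 0.0530 without control 4 and 0.0677 without control 5, while the log2 fold change kept between -0.80 and -0.68. The call against silica held in all 20 fits with 1 library left out (edgeR adjusted p 0.00776 to 0.0365). Without the 5 libraries at the end of the first component, the fold change was -0.69 against control and -1.07 against silica, with edgeR adjusted p of 0.136 and 0.0708.

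**Figure D2:**
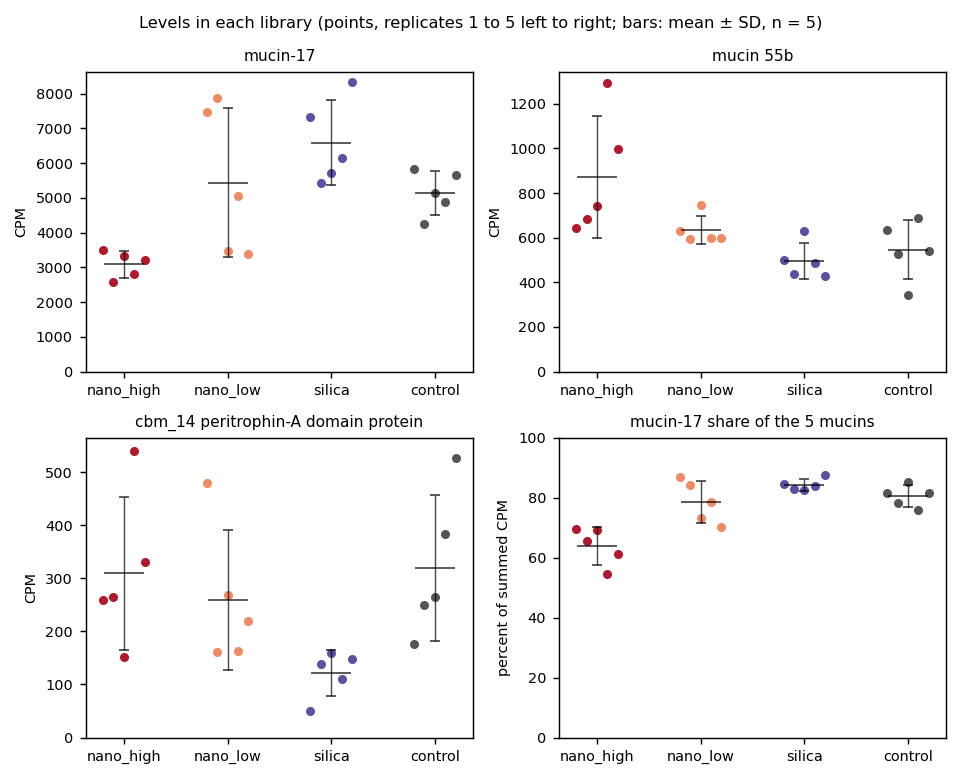
CPM of mucin-17, mucin 55b and the cbm_14 protein, and the percentage of summed mucin CPM held by mucin-17, in each library (points, replicates 1 to 5 from left to right within a group) with the group mean and SD (n = 5). All 5 nano_high libraries have less mucin-17 than any control or silica library, and mucin 55b reaches 1295 CPM in nano_high 4.

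Mucin 55b, named after a secreted fruit fly mucin, went the opposite way. It had 644, 685, 741, 1295 and 996 CPM in nano_high libraries 1 to 5, against 633, 527, 344, 689 and 542 CPM in control. Nano_high 3, 4 and 5 were above every control library, and nano_high 1 and 2 lay below the highest control, so the groups overlapped at their edges. Silica libraries held 498, 439, 631, 487 and 427 CPM, all of them below the lowest nano_high library. Nano_low libraries held 630, 596, 745, 601 and 600 CPM, within a narrow band apart from nano_low 3.

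Mucin 55b averaged 872 ± 273 CPM in nano_high, 634 ± 63.1 in nano_low, 496 ± 81.4 in silica and 547 ± 132 in control (SD, n = 5 each). It rose in nano_high by 0.67 on the log2 scale against control (SE 0.19, 95% interval 0.27 to 1.08, edgeR adjusted p = 0.0330). Against silica it rose by 0.81 (SE 0.19, 95% interval 0.41 to 1.22, edgeR adjusted p = 0.0253). The log2 difference between nano_high and nano_low was 0.46 (95% interval 0.06 to 0.86, edgeR adjusted p = 0.679), and 0.28 without nano_high 4 (edgeR adjusted p = 0.818). Against control it was 0.21 in nano_low (95% interval -0.19 to 0.62, edgeR adjusted p = 0.631) and -0.14 in silica (95% interval -0.54 to 0.26, edgeR adjusted p = 0.645).

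Single libraries decided both mucin 55b calls. Against control the edgeR adjusted p was 0.0795 without nano_high 4 (fold change 0.48), 0.0702 without nano_high 5, 0.0566 without control 2, 0.0831 without control 3 and 0.0658 without control 5. Against silica it was 0.0622 without nano_high 4, 0.0743 without nano_high 5, 0.0709 without silica 1, 0.0623 without silica 4 and 0.0602 without silica 5. The 2 highest values came from nano_high 4 and 5, which belong to the 5 libraries at the end of the first component. Without those 5 libraries the log2 difference was 0.46 against control (edgeR adjusted p = 0.153), 0.47 against silica (0.163) and 0.12 against nano_low (0.973).

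The opposite movements changed the make-up of the mucin transcripts, a description that uses the same values as the tests above. Of the summed CPM of the 5 mucins, mucin-17 held 54.5% to 69.5% in nano_high libraries, 70.4% to 87.0% in nano_low, 82.5% to 87.5% in silica and 75.8% to 85.2% in control. Every nano_high library was thus below every library of the other groups. The summed mucin CPM was 4835 ± 543 in nano_high, 6778 ± 2123 in nano_low, 7790.4 ± 1264 in silica and 6395 ± 690 in control (SD, n = 5 each).

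The remaining mucins were not called in any of the 5 comparisons. Mucin 5ac, named after a gel-forming mucin of the human stomach and airways, averaged 710 ± 123 CPM in nano_high and 539 ± 89.0 CPM in control (SD, n = 5 each). That log2 difference was 0.40 (95% interval 0.02 to 0.78) with an edgeR adjusted p of 0.179. Mucin-1, named after a human epithelial membrane mucin, ran from 41.1 to 93.9 CPM over the 20 libraries and was highest in nano_high 5. Mucin 91c, named after a fruit fly mucin, ran from 41.7 to 236 CPM, with its highest values of 236 CPM in nano_high 5 and 202 CPM in control 4. Without the 5 libraries at the end of the first component it was called lower in nano_high against control (log2 fold change -0.85, edgeR adjusted p = 0.0459). A list searched for enzymes that start or extend mucin-type O-glycans gave no call. Of its 6 names 0 were called in any of the 5 comparisons by edgeR, and 0 had an unadjusted p under 0.05. By comparison, 0% to 10.1% of all names were called and 6.76% to 25.2% were under the unadjusted threshold. With 6 names, a count of 0 therefore says little. In silica against control 1 of the 6 was higher without overlap of the groups, against 8.69% of all names in either direction.

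Among the chitin-binding and peritrophic proteins the cbm_14 protein, named for the peritrophin-A chitin-binding domain, was lowest in the silica group. It had 50.4, 139, 159, 110 and 149 CPM in silica libraries 1 to 5, against 177, 249, 265, 383 and 527 CPM in control. The highest silica library lay below the lowest control library. In nano_high it had 259, 264, 152, 540 and 331 CPM, and in nano_low 480, 162, 268, 164 and 220 CPM. Of the nano_high libraries 1, nano_high 3, fell within the silica range, and all nano_low libraries lay above it.

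The cbm_14 protein averaged 309 ± 144 CPM in nano_high, 259 ± 131 in nano_low, 122 ± 43.8 in silica and 320 ± 137 in control (SD, n = 5 each). It was higher in nano_high than in silica by 1.35 on the log2 scale (SE 0.39, 95% interval 0.54 to 2.16), with an edgeR adjusted p of 0.0495 that only just passed. Silica against control gave a log2 difference of -1.40 (SE 0.39, 95% interval -2.21 to -0.58) with an edgeR adjusted p of 0.0820, which did not pass, while DESeq2 gave 0.00975. It was also called with only the silica and control libraries in the edgeR fit (adjusted p 0.0480) and without nano_low 1 (0.0435). The log2 difference from control was -0.05 in nano_high (95% interval -0.85 to 0.75, edgeR adjusted p = 0.958) and -0.31 in nano_low (95% interval -1.10 to 0.49, edgeR adjusted p = 0.725). The nano_low value was -0.66 without nano_low 1, -0.18 without nano_low 2 or nano_low 4 and -0.05 without control 5. Between nano_high and nano_low it was 0.26 (95% interval -0.54 to 1.05, edgeR adjusted p = 0.901).

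Both cbm_14 differences shrank once the first component was taken into account. With that component as a covariate the log2 fold change was 0.75 for nano_high against silica (edgeR adjusted p = 0.0305) and -0.59 for silica against control (edgeR adjusted p = 0.342). Without the 5 libraries at the end of the component they were 0.89 (edgeR adjusted p = 0.149) and -0.92 (edgeR adjusted p = 0.195). With 1 library left out, the edgeR adjusted p of nano_high against silica was 0.0807 without nano_high 2, 0.124 without nano_high 4, 0.107 without nano_high 5, 0.0614 without nano_low 3, 0.0506 without nano_low 4, 0.0542 without nano_low 5, 0.125 without silica 1, 0.0697 without silica 2, 0.0547 without silica 3, 0.102 without silica 4, 0.0721 without silica 5, 0.0575 without control 2, 0.0515 without control 3 and 0.0561 without control 4.

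The other peritrophic names were low or even. Peritrophin-44, named after a blowfly peritrophic membrane protein, had 25.2, 27.0, 30.5, 39.8 and 38.6 CPM in nano_high, 38.3, 33.8, 33.1, 21.7 and 26.9 CPM in nano_low, 33.5, 33.7, 28.6, 40.2 and 30.8 CPM in silica, and 32.9, 34.9, 24.5, 47.8 and 67.3 CPM in control. Its groups overlapped in all comparisons, and its highest values came from control 5 and control 4. Peritrophic membrane chitin binding protein stayed between 9.48 and 15.7 CPM, and peritrophic matrix protein 9 precursor between 3.47 and 8.72 CPM. Mucin peritrophin was the variable one, at 0.988 to 23.8 CPM. Its log2 difference in silica against control was 1.65 (95% interval 0.48 to 2.81) with an edgeR adjusted p of 0.128, whereas DESeq2 gave 0.0435. By edgeR it was 1.19 without the 5 libraries at the end of the first component (adjusted p 0.288) and 0.85 with that component as a covariate (0.536). In nano_high against silica it was -1.21 (95% interval -2.34 to -0.07, edgeR adjusted p = 0.170), with -0.79 without silica 4 (0.404) and -0.50 with the covariate (0.480).

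**Figure D3:**
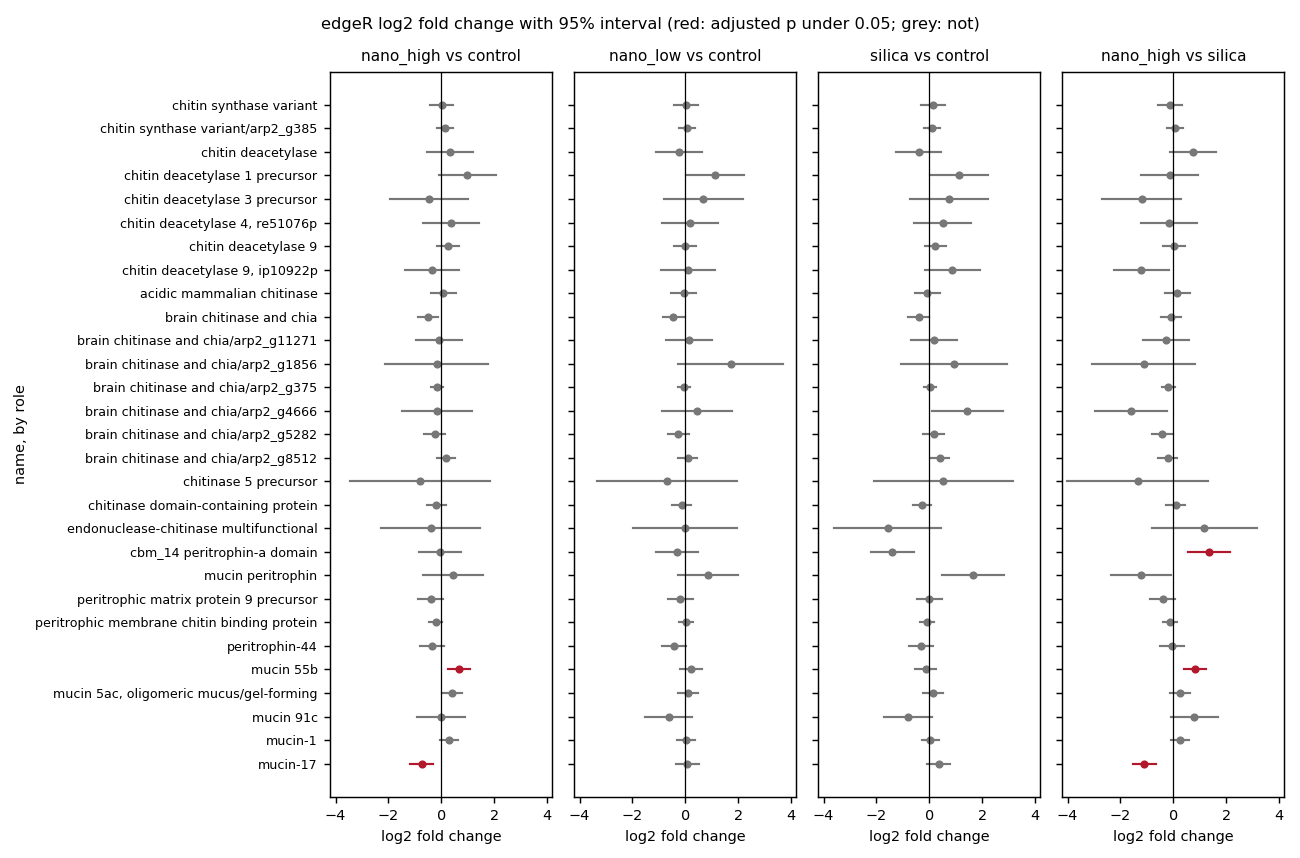
edgeR log2 fold change (point) with its 95% interval (line) of the 29 names (rows, by role) in nano_high, nano_low and silica, each against control, and in nano_high against silica (panels). Red marks an adjusted p under 0.05: mucin-17 and mucin 55b in the first panel, these and the cbm_14 protein in the last, and none in the middle panels.

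The chitin synthases, which polymerise chitin from UDP-N-acetylglucosamine at the cell surface, differed in steadiness. The SD of log2 CPM within groups was 0.350 for chitin synthase variant, and 63.1% of all names tested had a smaller one. For the name tagged arp2_g385 it was 0.230, and 38.7% of all names had a smaller one. Chitin synthase variant had 413, 266, 325, 366 and 532 CPM in nano_high, 276, 562, 275, 384 and 420 CPM in nano_low, 553, 427, 267, 399 and 434 CPM in silica, and 340, 398, 410, 398 and 346 CPM in control. The control libraries lay inside the range of each exposure group. The name with the tag arp2_g385 had 19.8, 20.7, 23.3, 24.8 and 22.8 CPM in nano_high, 22.3, 19.8, 21.3, 20.3 and 22.6 CPM in nano_low, 18.2, 24.2, 23.7, 19.7 and 21.9 CPM in silica, and 18.8, 21.7, 12.8, 27.4 and 20.6 CPM in control. Here the widest group was control. Of these 2 names 0 had an unadjusted p under 0.05 in any comparison, and 0 were called by edgeR or DESeq2. Over all names, 6.76% to 25.2% were under that threshold and edgeR called 0% to 10.1%, by comparison. For 2 names a count of 0 therefore says little.

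A list of 21 names of hexosamine and trehalose metabolism was examined for the supply of the chitin precursor, and it also holds enzymes of glycan trimming and N-glycan assembly. In nano_high against control 2 of 21 were called, both lower, a share near the 10.1% of all names. None of the names called in that comparison makes the precursor. Beta-hexosaminidase subunit alpha, which trims terminal N-acetylhexosamines, fell to 96.3 CPM in nano_high, against 130 CPM in control, a log2 difference of -0.43 (SE 0.12, edgeR adjusted p = 0.0269). The N-acetylglucosamine phosphotransferase acting on dolichyl phosphate, which starts N-glycan assembly and not chitin synthesis, fell to 22.4 CPM in nano_high, against 28.9 CPM in control, a log2 difference of -0.37 (SE 0.08, edgeR adjusted p = 0.00826). In nano_high against silica 2 of 21 were called, also lower, where 5.35% of all names were called: the same transferase (-0.33, edgeR adjusted p = 0.0274) and N-acetyl-D-glucosamine kinase, a salvage enzyme (-0.88, edgeR adjusted p = 0.0264). In the other 3 comparisons 0 of 21 were called by edgeR, with 2, 5 and 2 names under an unadjusted p of 0.05 in nano_low against control, in silica against control and in the contrast of both polymer levels. The shares of all names under that threshold were 14.1%, 23.2% and 6.76%, in the same order.

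As a role, the chitin deacetylases had the highest median spread between libraries of the same group, although single chitinases varied more. Chitin deacetylase 1 precursor, whose insect namesakes organise chitin in cuticle and tracheae, had 2208, 1702, 2446, 679 and 1782 CPM in nano_high libraries 1 to 5. It had 320, 1775, 1161, 3163 and 3244 CPM in nano_low and 3424, 1134, 2209, 2014 and 914 CPM in silica, against 1115, 1134, 1285, 527 and 380.5 CPM in control. Values above the highest control of 1285 CPM occurred in all 3 exposure groups, yet each exposure group also held libraries within or below the control range. The 4 lowest values of all 20 libraries came from nano_low 1, control 5, control 4 and nano_high 4, which are 4 of the 5 libraries at the end of the first component.

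Chitin deacetylase 1 precursor averaged 1764 ± 679 CPM in nano_high, 1933 ± 1270.1 in nano_low, 1939 ± 998 in silica and 888 ± 406 in control (SD, n = 5 each). The log2 differences from control were 0.99 in nano_high (95% interval -0.09 to 2.07), 1.12 in nano_low (0.03 to 2.21) and 1.13 in silica (0.04 to 2.21), with edgeR adjusted p of 0.248, 0.348 and 0.205. These 3 comparisons share the same control libraries. None was called, and without the 5 libraries at the end of the first component the differences were 0.85 in nano_high (edgeR adjusted p = 0.248), 0.99 in nano_low (0.270) and 0.72 in silica (0.403). With the first component as a covariate they were 0.77 in nano_high, 0.42 in nano_low and 0.15 in silica (edgeR adjusted p = 0.0996, 0.605 and 0.941).

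Chitin deacetylase 9, of a group that insects express mainly in the gut, was far steadier. It had 346, 265, 405, 361 and 347 CPM in nano_high, 217, 386, 309, 318 and 211 CPM in nano_low, 402, 254, 268, 490.4 and 280 CPM in silica, and 271, 264, 257, 284 and 366 CPM in control. The groups overlapped in every comparison. Chitin deacetylase 9, ip10922p averaged 45.5 ± 23.2 CPM in nano_high and 105 ± 29.7 CPM in silica (SD, n = 5 each), a log2 difference of -1.21 (95% interval -2.24 to -0.17, edgeR adjusted p = 0.136). Chitin deacetylase 3 precursor spanned 6.79 to 340 CPM, chitin deacetylase 4, re51076p 18.2 to 158 CPM, and the name chitin deacetylase 84.2 to 500 CPM. None of the 6 deacetylases was called by edgeR or DESeq2 in any comparison. Of all 7564 names edgeR called 0% to 10.1% and DESeq2 called 4 to 1152, by comparison. In silica against control 5 of the 6 had a log2 difference above 0, as had 3999 of all 7564 names. The median over the 6 was 0.62, against 0.03 over all names. The largest of the 6, 1.13 for chitin deacetylase 1 precursor, was 0.15 with the first component as a covariate.

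Among the chitinases, the name brain chitinase and chia had the highest CPM. It had 1912, 2425, 1748, 2950.3 and 2374 CPM in nano_high, 3077, 2225, 2595, 1873 and 2023 CPM in nano_low, and 2483, 2266, 2146, 2703 and 2550.0 CPM in silica, against 2569, 2604, 2490, 3870.3 and 4546 CPM in control. Control 4 and 5 were higher than every library of the 3 exposure groups, and the other control libraries were not. Means were 2282 ± 474 CPM in nano_high, 2359 ± 484 in nano_low, 2429 ± 223 in silica and 3216 ± 938 in control (SD, n = 5 each).

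All 3 exposures gave a lower mean of brain chitinase and chia than the shared control, and none passed. The log2 difference was -0.49 in nano_high (95% interval -0.88 to -0.11, edgeR adjusted p = 0.0952), -0.45 in nano_low (-0.83 to -0.06, edgeR adjusted p = 0.297) and -0.40 in silica (-0.79 to -0.02, edgeR adjusted p = 0.202). Control 4 and 5 belong to the 5 libraries at the end of the first component. Without these 5 the differences were -0.33 in nano_high, -0.23 in nano_low and -0.07 in silica (edgeR adjusted p = 0.161, 0.432 and 0.829). The nano_high difference was called without nano_high 4 (-0.61, edgeR adjusted p = 0.0439) and with the first component as a covariate (-0.38, edgeR adjusted p = 0.0100). With the same covariate it was -0.25 in nano_low (edgeR adjusted p = 0.230) and -0.00049 in silica (0.999). Without control 5 alone it was -0.29 in nano_low (edgeR adjusted p = 0.600) and -0.25 in silica (0.477).

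Chitinase 5 precursor, named after the moulting-fluid chitinase of insects, had the widest spread of all 29 members. It had 28.7, 75.2, 225, 0.325 and 28.0 CPM in nano_high, 49.2, 80.2, 189, 3.98 and 68.0 CPM in nano_low, 72.6, 423, 31.2, 31.1 and 350.2 CPM in silica, and 392, 163, 55.1, 16.0 and 0.693 CPM in control. The highest library, silica 2, was 1301-fold above the lowest, nano_high 4, and the lowest library of the other groups had 3.98 CPM in nano_low, 31.1 CPM in silica and 0.693 CPM in control. The SD of its log2 CPM within groups was 2.84, and 99.6% of all names tested had a smaller one. No comparison of it gave an unadjusted p under 0.05. Its log2 difference in nano_high against control had a 95% interval from -3.46 to 1.83 (edgeR adjusted p = 0.744).

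The other chitinases are given by their ranges. Acidic mammalian chitinase, in mammals a stomach and lung enzyme, ran from 72.1 to 175 CPM, and the chitinase domain-containing protein from 16.4 to 31.5 CPM. Under the description brain chitinase and chia, 6 further names with gene tags were listed, and reads of near-identical copies may have been shared among them. The steadiest of the 6, arp2_g375, stayed between 46.9 and 74.0 CPM. The name tagged arp2_g11271 ran from 6.12 to 35.05 CPM, arp2_g5282 from 5.95 to 15.2 CPM and arp2_g8512 from 4.67 to 11.1 CPM. In nano_high against silica arp2_g5282 had a log2 difference of -0.42 (95% interval -0.81 to -0.03, edgeR adjusted p = 0.166). In silica against control arp2_g8512 had 0.40 (95% interval 0.05 to 0.75, edgeR adjusted p = 0.174). The name tagged arp2_g4666 spanned 1.13 to 68.1 CPM and was lower in every nano_high library (3.74 to 31.0 CPM) than in any silica library (31.6 to 68.1 CPM). The log2 difference was -1.61 (95% interval -2.96 to -0.26, edgeR adjusted p = 0.128). Against control the silica group gave 1.44 for it (95% interval 0.09 to 2.79, edgeR adjusted p = 0.197). With the first component as a covariate these were -0.81 and 0.60 (edgeR adjusted p = 0.356 and 0.767).

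A pair of chitinase names lay near the detection limit. The name tagged arp2_g1856 had 0 counts in 4 libraries, nano_low 3, silica 5, control 1 and control 5, where a count of 0 allows levels of up to 0.308, 0.400, 0.181 and 0.231 CPM (3 counts, counting error only). The endonuclease-chitinase multifunctional protein had 0 counts in 5 libraries, of which 4 were silica 2 to 5 and the other was control 4. In those silica libraries a count of 0 allows up to 0.166, 0.165, 0.287 and 0.400 CPM, and the nano_high libraries, all deeper than these 4, had 0.262 to 0.673 CPM. Silica 1 had 0.797 CPM and the other control libraries 0.385 to 1.14 CPM. No difference of either name was called in any comparison.

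**Figure D4:**
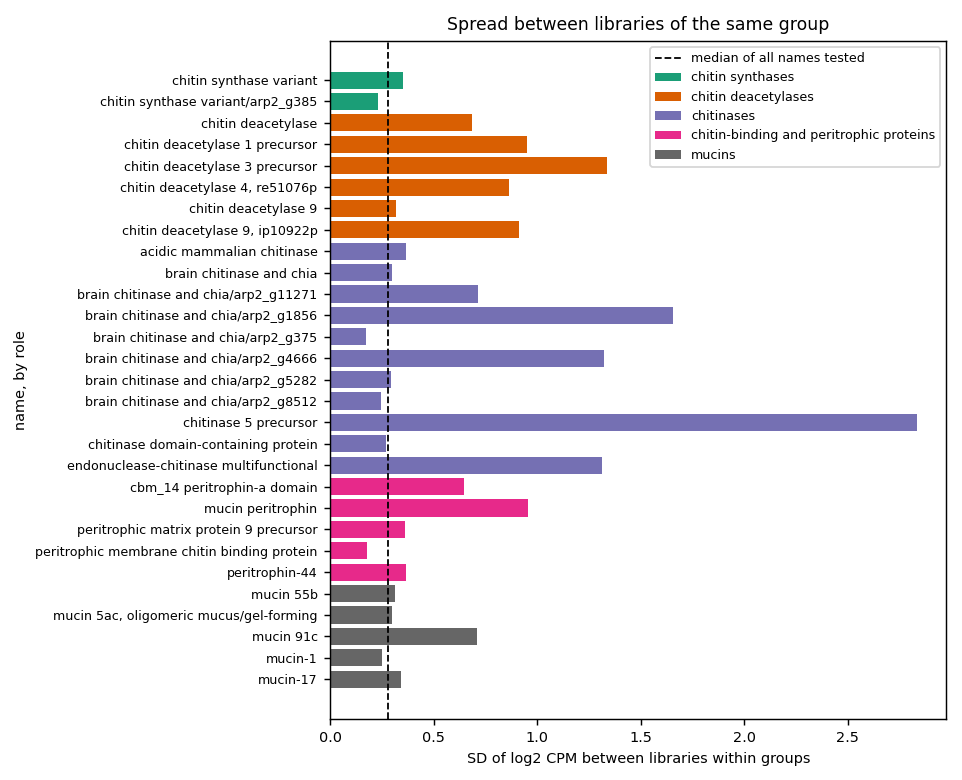
SD of log2 CPM between libraries of the same group for each of the 29 names (bars, coloured by role), with the median of all names tested as a dashed line at 0.281. The longest bar is chitinase 5 precursor at 2.84, and 23 of the 29 bars pass the line.

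Across the set, variation within groups was wider than usual for this table. The SD of log2 CPM between libraries of 1 group had a median of 0.365 over the 29 members, against 0.281 over all 7564 names, and 23 of 29 members were above the median of all names. An SD above 1 was found for 5 of 29 members (17.2%), against 7.51% of all names. These members include arp2_g1856 (1.66) and the endonuclease-chitinase multifunctional protein (1.31), which lay near the detection limit with 0 counts in some libraries. The deacetylases had the highest median of the 5 roles, 0.887, and the chitin synthases the lowest, 0.290. Differences between groups took a median of 19.9% of the variance in log2 CPM over the members, against 24.3% over all names. They took 62.2% for mucin-17, 52.6% for mucin 55b and 48.5% for the cbm_14 protein.

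Members whose CPM did not overlap between groups were few. In nano_high against control 1 of 29 members, mucin-17, showed no overlap, against 8.8% of all names. In silica against control it was 1, the cbm_14 protein, against 8.69%, and in nano_high against silica 3 (mucin-17, mucin 55b and arp2_g4666), against 7.79%. In nano_low against control and nano_high against nano_low it was 0, against 2.59% and 1.18% of all names.

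Names marking the tissues that carry chitin and mucus were read beside these values. The midgut list held 45 names with a digestive enzyme word such as trypsin or amylase, so names that are not enzymes could enter it. These names, of which 44 were tested, summed to 13790 to 18432 CPM in nano_high, 12598 to 17880 in nano_low, 13173 to 19360 in silica and 16108 to 24068 in control. Of the 44 tested, 15 had a log2 difference above 0 in nano_high against control, as had 3974 of all 7564 names. In that comparison 4 of the 44 were called lower and 0 higher, near the 10.1% of all names called there. The 4 were alpha-amylase (-0.78), chymotrypsin proteinase 6e precursor (-1.31), glutamate carboxypeptidase (-0.42) and a trypsin-like serine protease (-1.24). In nano_high against silica 1 rose, where 5.35% of all names were called. It was an inter-alpha-trypsin inhibitor heavy chain (0.99, edgeR adjusted p = 0.0357), which is not a digestive enzyme and was listed only for the word trypsin. By edgeR 0 of 44 were called in nano_low against control, in silica against control and between the polymer levels. There 6, 14 and 5 of 44 had an unadjusted p under 0.05, against 14.1%, 23.2% and 6.76% of all names, in the same order. The 43 cuticle protein names, of which 41 were tested, summed to 5784 to 9296 CPM in nano_high, 5671 to 13669 in nano_low, 5692 to 14791 in silica and 6496 to 12429 in control. None of them was called by edgeR in any of the 5 comparisons, with 0, 4, 10, 1 and 6 under an unadjusted p of 0.05 in nano_high, nano_low and silica against control, between the polymer levels, and in nano_high against silica. The shares of all names under that threshold were 24.8%, 14.1%, 23.2%, 6.76% and 25.2%, in the same order. Of 34 collagen and laminin names tested, 2 rose in nano_high against control, where 10.1% of all names were called. They were laminin subunit alpha-3, by 0.61, and laminin subunit beta-2, by 0.55 on the log2 scale (edgeR adjusted p = 0.0125 and 0.0404). Summed collagen and laminin CPM ran from 5158 to 14467 in nano_high, 3591 to 15388 in nano_low, 9688 to 18900 in silica and 4049 to 11900 in control, and the 5 lowest of the 20 libraries were the 5 at the end of the first component. Of the 4 ovary and yolk names 1 fell in nano_high against control, where 10.1% of all names were called. It was vitelline membrane outer layer protein 1 (-0.80, edgeR adjusted p = 0.0389). Of the 4, 2 had a log2 difference above 0 in that comparison and 2 below. In silica against control 4 of 4 were below 0 and 0 were called by edgeR. There 3 had an unadjusted p under 0.05, against 23.2% of all names. In nano_low against control 4 of 4 were also below 0, with 0 under that threshold, against 14.1% of all names. The part of these tissues in the mucin, chitinase and deacetylase values was not tested.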

How the data were processed

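RNA from pooled whole Daphnia magna was sequenced in 20 libraries after poly-A selection with a stranded kit, per the labels' protocols. Salmon 0.12.0 and R 3.4.3 appear in the submitters' processing notes. Not given in the sources used here are the reference and annotation, the use of strand, and how transcripts became names. The authors deposited a table of expected counts (estimated counts per name). It is called normalized, but its columns sum to unequal totals, so the values were treated as unscaled expected counts and rounded to whole numbers. All columns matched a library (0 unmatched), and 0 of the 40 pairs of libraries of the same group were identical.

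Testing needed a deposited value of 1 or more in 5 or more libraries (7564 of 7784, 220 left out). Libraries were scaled by TMM, and edgeR 4.0.16 in R 4.3.3 fitted a mean per group to all 20 libraries, with two-sided quasi-likelihood tests and Benjamini-Hochberg adjustment over all names tested at 0.05. Log2 CPM used a prior count of 2. The fit was checked on simulated counts. Summaries used pandas 2.3.3, scipy 1.17.1 and numpy 2.4.6 in Python 3.11.15, and figures matplotlib 3.10.9. Library depth sets the precision of low names, and limits for counts of 0 cover counting error only.

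The 29 members and the accompanying lists were chosen with earlier results of these data known, so no result is independent of that choice. Values in every library are given for the 3 marker names, members called in any comparison, the 2 members with the highest mean CPM in each role, and the member with the smallest p in each comparison (10 names). Other values are ranges. Alternatives were RLE scaling, no filter, DESeq2 1.42.0, a fit of only the groups compared, the first principal component as a covariate, a replicate block, leaving out each library, and leaving out 5 libraries. Neither the labels nor the rule used (a correlation over 0.1 in every same-numbered pair) made the replicate numbers pairs. The pools of libraries for sequencing could not be examined, since no label says which libraries shared one. None of the 29 names matched a reference symbol (0 of 29), so no lengths, positions or sequences were used.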

Additional observations from a re-analysis of the deposited data

Results flagged for a closer look

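Among 40 groups of 5 libraries (10 names in 4 groups), 3 held a library whose gap to its nearest neighbour was more than 0.71 of the range of the group in log2 CPM. Chance flags about 1 in 20 groups. Chitin deacetylase 1 precursor had 679 CPM in nano_high 4, below the 1702 to 2446 CPM of the other nano_high libraries. Chitin deacetylase 9 had 366 CPM in control 5, above the 257 to 284 CPM of the other control libraries. Mucin 55b had 745 CPM in nano_low 3, above the 596 to 630 CPM of the other nano_low libraries. Nano_high 4 and control 5 are among the 5 libraries at the negative end of the first principal component, and nano_low 3 is not.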

How the results depend on the processing

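The 29 results for single names were recomputed under 27 alternatives each, and 11 of 783 values changed sign, all of them of differences that were never called. The cbm_14 protein in nano_high against control turned to 0.15 with the first component as a covariate, and in nano_low against control to 0.041. Mucin 55b in silica against control turned to 0.11 with that covariate, and mucin-17 in nano_low against control to -0.039 without the 5 libraries. With 1 library left out, the cbm_14 protein ranged from -0.36 to 0.20 in nano_high against control and from -0.043 to 0.60 in nano_high against nano_low, and mucin-17 from -0.091 to 0.21 in nano_low against control.

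The number of members called in nano_high against control was 2, and 1 in the fit of only these groups (mucin-17), 1 with the replicate block (mucin-17) and 1 without the 5 libraries (mucin 91c), against 3 with the first component as a covariate (brain chitinase and chia added), and it ranged from 0 to 2 with 1 library left out. Over all names, 380 of 7492 were called in the fit of only these groups, 611 of 7564 with the replicate block and 617 of 7525 without the 5 libraries. With the covariate 1748 of 7564 names were called, and with 1 library left out 413 to 967. In silica against control the number of members was 0, with 2 by DESeq2 and 1 with only these groups, and from 0 to 1 with 1 library left out. Over all names DESeq2 called 399 of 7564 there, the fit of only these groups 373 of 7443, and the fits with 1 library left out 0 to 210. In nano_high against silica the number of members was 3, with 1 for only these groups (mucin-17) and 0 without the 5 libraries, against 4 with the covariate (brain chitinase and chia added, -0.38, edgeR adjusted p = 0.0319), and from 1 to 3 with 1 library left out. Over all names, 36 of 7482 were called for only these groups and 38 of 7525 without the 5 libraries. With the covariate 652 of 7564 names were called, and with 1 library left out 77 to 652. Nano_low against control and nano_high against nano_low gave 0 under all alternatives. The cause of these changes was not tested, except that dropping libraries or groups leaves fewer samples.

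Over all groups, 7 of 30 same-numbered pairs of libraries had a correlation of deviations above 0.1, with a range from -0.636 to 0.65, and 3 of 20 libraries matched best a library of their own number. In nano_high against control 4 of 5 pairs were above 0.1 (0.479, 0.427, 0.65 and 0.169) and the pair numbered 2 was at -0.0436, so the pairing was not taken as shown there either. With the replicate block mucin 55b in nano_high against control (0.66, edgeR adjusted p = 0.0549) and the cbm_14 protein in nano_high against silica (1.30, edgeR adjusted p = 0.0918) were not called, and the other 3 member calls remained.

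Over all names tested, calls in nano_high against control numbered 761 and ranged from 380 to 1748 over the alternatives. The numbers were 47 (3 to 236) in nano_low against control, 53 (0 to 399) in silica against control, 405 (36 to 919) in nano_high against silica and 0 (0 to 4) in nano_high against nano_low. Depth limits the chitinase names at 0 counts.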
